A study of Mus musculus with 6 samples.

Results

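The genes described here are 8 that make or carry ligands of the selectins, of 16749 genes listed in at least 1 library. They were taken by symbol, from a list drawn up with earlier results of these data known: Selplg and Spn, which encode the mucin-like surface proteins PSGL-1 and CD43, and 6 glycosyltransferase genes, Gcnt1, Fut7, St3gal1, St3gal4, St3gal6 and St6gal1. All 8 were matched to an NCBI gene number and all 8 were listed in all 6 libraries. RNA was sequenced from CD8+ T cells that had been isolated by FACS from the iLN, as the labels abbreviate the tissue, of tumor-bearing C57BL/6 mice given oxaliplatin, a platinum drug that damages DNA. The 3 libraries called WT carried the genotype Id2f/f, a floxed Id2 gene without Cre. The 3 called knockout carried Cd4creId2f/f, in which Cre under Cd4 control acts in developing T cells, so Cre itself and the loss of Id2 cannot be told apart. Ages, treatment times and the mice behind each library are not given in the sources used here. P-values therefore reflect how these samples differ among themselves, which may be technical.

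Selectins are lectins on endothelium, platelets and leukocytes that slow blood cells along the vessel wall. Their ligands are sugars more than proteins: an O-glycan on a mucin such as PSGL-1 is branched by the core 2 enzyme, extended, capped with sialic acid and fucosylated, which gives the sialyl Lewis X structure. Naive CD8+ T cells carry PSGL-1 but little of this decoration, and activated effector cells acquire it and so bind P- and E-selectin.

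Libraries held between 7699181 and 8495123 expected counts, the reads that the authors' program assigned to genes. Id2 itself was listed at 370.98, 146.76 and 149.01 FPKM (fragments per kilobase of transcript, scaled to the depth of the library, the unit of every level below) in WT and at 1.67, 2.64 and 2.12 in knockout, in keeping with the label of each library. All 8 CD8 T cell markers were found in every library, with summed levels of 3545 to 4122 FPKM in WT and 3356 to 4566 in knockout, and 0 of 8 passed the test. Transcripts of other cell types were present too: the 16 B cell markers summed to 995.5, 3213 and 3724 FPKM in WT and 756.1, 3035 and 673.4 in knockout. Ighm and Ighd were not listed in any library and were taken as 0. Cd74 was the largest part of each sum, at 529.88, 1785.33 and 2064.02 FPKM in WT and 398.66, 1675.71 and 354.06 in knockout. Cd79a stood at 42.74, 151.29 and 195.82 FPKM in WT and 26.33, 150.58 and 26.65 in knockout. The 7 dendritic cell markers summed to 23.56 to 26.56 FPKM in WT and 3.63 to 6.73 in knockout, with Clec9a not listed in any library and taken as 0. Of the 4 tested 3 were lower by edgeR, against 8.77% of all genes tested. Of these, Itgax and Batf3 entered the test through the WT group alone, as no knockout library reached 1 FPKM for either. The 5 NK cell markers summed to 14.95 to 33.43 FPKM in WT and 10.8 to 13.97 in knockout, and 0 of the 3 tested passed. Only Klre1 of this list had groups that did not overlap (25.06, 5.83 and 9.54 FPKM in WT, 3.31, 5.15 and 3.98 in knockout). Tyrobp and Fcer1g had log2 fold changes of 0.04 and -0.15. Of the 6 plasma cell markers Jchain was lower (log2 fold change -1.48, adjusted p = 0.00874, edgeR), and no other tested marker of that list passed. Of the 5 CD4 T cell markers Ikzf2 was higher (1.32, adjusted p = 0.015, edgeR), and it passed the filter through the knockout group alone. The other tested CD4 T cell markers did not pass: Cd4 (-0.69), Cd40lg (-0.02) and Foxp3 (0.03). Zbtb7b was not tested and was lower in every knockout library than in any WT library. In bulk RNA, fewer cells of a type and less RNA per cell cannot be told apart.

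Stretches of DNA just before RefSeq starts of the 3 members that changed are shown first. RefSeq starts were found for 6 of the 8 members, 12 windows in all, and the 250 bases before each start were searched on both strands for the E-box CANNTG, the general site of E proteins that Id2 opposes, for its forms CAGGTG and CAGCTG, which lie within CANNTG, and for the T-box letters GGTGTGA. Of each changed member the window with the most E-boxes among those clear of GENCODE exons is given (with a tie, the most upstream), 5′ to 3′ on the strand of the gene in build GRCm38.p6 (mm10), with E-boxes in capitals. The Fut7 window lies at chr2:25422992-25423241 (plus strand), the Gcnt1 window at chr19:17356668-17356917 (minus strand) and the St6gal1 window at chr16:23224490-23224739 (plus strand).
Fut7: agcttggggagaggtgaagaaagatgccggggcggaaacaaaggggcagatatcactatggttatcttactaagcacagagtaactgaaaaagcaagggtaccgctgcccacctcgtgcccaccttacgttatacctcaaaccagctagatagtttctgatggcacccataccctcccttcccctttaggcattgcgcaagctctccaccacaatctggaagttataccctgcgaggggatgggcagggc
Gcnt1: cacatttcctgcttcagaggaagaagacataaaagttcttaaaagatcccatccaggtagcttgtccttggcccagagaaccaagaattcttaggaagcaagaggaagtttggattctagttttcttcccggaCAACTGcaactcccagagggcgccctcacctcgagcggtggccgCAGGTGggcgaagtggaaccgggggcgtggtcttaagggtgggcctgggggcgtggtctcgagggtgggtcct
St6gal1: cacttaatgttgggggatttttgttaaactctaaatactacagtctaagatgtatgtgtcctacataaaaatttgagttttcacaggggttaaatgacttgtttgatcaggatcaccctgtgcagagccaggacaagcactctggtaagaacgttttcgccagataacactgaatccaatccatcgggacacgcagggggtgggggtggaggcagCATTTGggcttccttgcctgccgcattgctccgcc

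The Fut7 window holds 0 E-boxes, as does the other Fut7 window searched. RefSeq places the upstream end of the gene at 25422351, before both windows, and the bases ahead of that position were not searched. A stretch just after the start of the printed Fut7 window was not found in any GENCODE transcript of Fut7. The Gcnt1 window holds 2, of which 1 is a CAGGTG, and the St6gal1 window holds 1. RefSeq places the upstream end of Gcnt1 at 17372844, so the printed Gcnt1 window lies inside the gene. The Gcnt1 window just before that end, also clear of exons, holds 1 and no CAGGTG. Of the other St6gal1 windows, the one at chr16:23290220-23290469 also holds 1 and the other holds 0. Printed windows were picked for the most E-boxes, so their counts cannot be set against the shares of all windows. Of all 32851 RefSeq windows of this length 66.2% hold CANNTG, 17.2% CAGGTG, 13% CAGCTG and 3.33% GGTGTGA. Among the 12 windows of members, 7 hold CANNTG, 2 CAGGTG, 0 CAGCTG and 0 GGTGTGA. The 2 with CAGGTG are both of Gcnt1 and lie inside the gene. A match is only a match of letters in this window.

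Of the 8 members, 2 were lower in knockout, Fut7 and Gcnt1, and 1 was higher, St6gal1. The other 5 did not pass. Differences were tested with edgeR's quasi-likelihood test at an adjusted p of 0.05 over 10890 genes, of which 11.9% passed, 8.77% lower and 3.14% higher, and 27.6% had an unadjusted p under 0.05. The groups did not overlap in FPKM for 3 of the 8 members, 1 higher and 2 lower, against 32.1% of all genes tested (15.3% higher and 16.8% lower). The median log2 fold change of the 8 was -0.04 and that of all genes tested 0.01. Fold changes are knockout over WT. The summed dendritic cell and NK cell markers were also lower in every knockout library than in any WT library. Single markers of both lists were not, and Siglech went the other way. The part of these transcripts in the results for the members was not tested.

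Under other settings the share of all genes that passed was 14.4% by DESeq2, 11.9% in edgeR with DESeq2's size factors, 12.2% with upper quartile scaling, 11.1% with a B cell covariate and 10.9% with a replicate block. It was 10.1% by limma on log2(FPKM + 0.1), 10.6% by limma on log2(FPKM + 1), 9.29% with no filter and 14.3% with an FPKM minimum of 5. Without knockout replicate 1, 2 or 3 it was 8.27%, 14.3% or 5.52%, and without WT replicate 1, 2 or 3 it was 10.2%, 9.62% or 6.29%. Fut7 and St6gal1 passed in all of these fits that tested them.

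**Figure D1:**
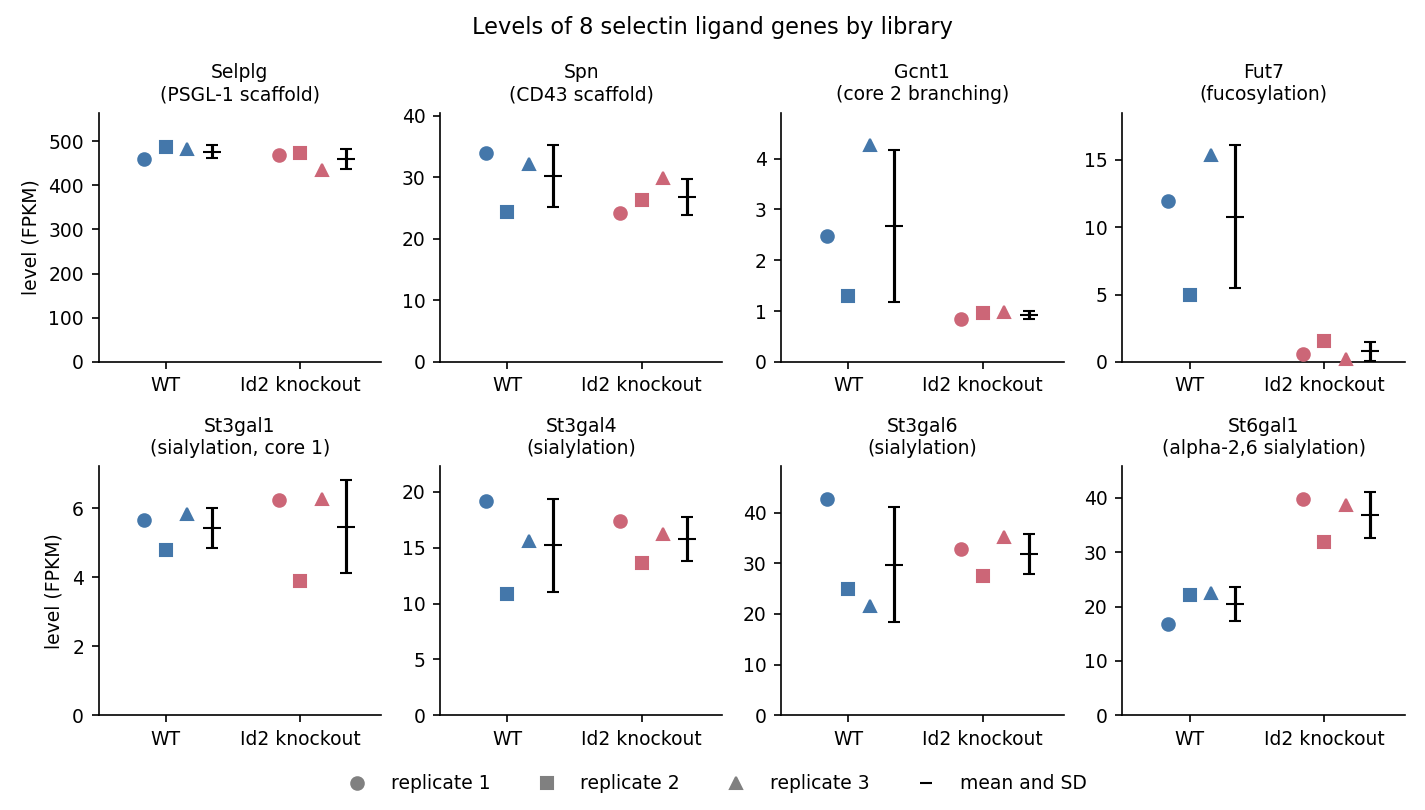
Levels of the 8 members in FPKM (vertical axes, each from 0) in the 3 WT libraries (blue) and the 3 Id2 knockout libraries (red), with symbols for the replicate number and black bars for the mean and SD of each group. All knockout libraries lie below all WT libraries for Gcnt1 and Fut7 and above them for St6gal1, and the groups overlap for the other 5.

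Neither of the protein scaffolds passed. Selplg encodes PSGL-1, the main ligand of P-selectin on T cells, and was the most abundant member by far. It was listed at 460.71, 486.61 and 482.22 FPKM in WT and at 469.76, 474.42 and 434.38 in knockout, means of 476.5 ± 13.9 and 459.5 ± 21.9 (SD, n = 3 each). Its groups overlapped, and its log2 fold change was -0.07 (95% interval -0.27 to 0.13, adjusted p = 0.684, edgeR). That interval spans a ratio of 0.83 to 1.1, from 31440 counts in WT and 28210 in knockout.

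Spn encodes CD43, an abundant sialomucin whose core 2 glycoform marks activated CD8+ T cells. Its levels were 33.90, 24.41 and 32.09 FPKM in WT and 24.14, 26.26 and 29.90 in knockout. WT replicate 2 lay among the knockout values, and the log2 fold change of -0.21 (95% interval -0.51 to 0.08) did not pass (adjusted p = 0.335, edgeR).

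Fut7 encodes the fucosyltransferase that completes sialyl Lewis X, the last step in making a selectin ligand in leukocytes. It fell furthest of the members. Its levels were 11.93, 4.96 and 15.37 FPKM in WT and 0.57, 1.58 and 0.22 in knockout, on 490 counts in WT and 33 in knockout. Every knockout library lay below every WT library, with WT replicate 2 the lowest of its group and knockout replicate 2 the highest of its own. In knockout only replicate 2 reached 1 FPKM, and the WT libraries alone met the filter on low values (3 or more libraries at 1 FPKM or above). With no filter edgeR gave a log2 fold change of -3.79 (adjusted p = 2.58e-05). The mean went from 10.8 ± 5.3 to 0.79 ± 0.706 FPKM, a 13.9-fold fall (95% interval 5.73 to 34, log2 fold change -3.8, SE 0.576, adjusted p = 0.00232, edgeR). Of all genes tested 0.331% had a larger absolute log2 fold change. Without knockout replicate 2 the log2 fold change was -4.77, and Fut7 was lower with an adjusted p of 0.0199 or less in each edgeR fit that left out 1 library. Fut7 lies on mm10 chromosome 2 from 25422351 to 25426374.

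Gcnt1 encodes the core 2 branching enzyme, which opens the arm of the O-glycan on which sialyl Lewis X is built. It was the least abundant member in WT. Its levels were 2.48, 1.29 and 4.26 FPKM in WT and 0.84, 0.97 and 0.98 in knockout, on 313 and 101 counts. The WT libraries spread widely, in the same order as for Fut7, with replicate 3 highest and replicate 2 lowest, while the knockout libraries lay close together below them. The fall was 2.92-fold (95% interval 1.58 to 5.37, log2 fold change -1.54, SE 0.395, adjusted p = 0.0312, edgeR). Gcnt1 lies on chromosome 19 from 17326141 to 17372844.

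The call of Gcnt1 depended on single libraries. It ended without WT replicate 1 (adjusted p = 0.0551), WT replicate 3 (0.126, with a log2 fold change of -1.06), knockout replicate 1 (0.101), knockout replicate 2 (0.0518) or knockout replicate 3 (0.107), all by edgeR, and with the summed B cell markers as a covariate (0.0584). It passed the filter on low values (3 or more libraries at 1 FPKM or above) through the WT group alone. In an edgeR fit with no filter its log2 fold change was -1.53 (adjusted p = 0.00778).

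St6gal1 encodes the enzyme that adds sialic acid in an alpha-2,6 linkage, mainly on N-glycans, and so makes a ligand of the B cell lectin CD22 and not a selectin ligand. It was the member that rose. Its levels were 16.87, 22.10 and 22.50 FPKM in WT and 39.84, 31.90 and 38.76 in knockout, on 2300 and 3839 counts. The lowest knockout library lay above the highest WT library. The mean rose from 20.5 ± 3.14 to 36.8 ± 4.31 FPKM, 1.78-fold (95% interval 1.45 to 2.2, log2 fold change 0.83, SE 0.135, adjusted p = 0.00347, edgeR).

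B cells also express St6gal1, and the summed B cell markers varied between libraries. Among the knockout libraries, replicate 2 had the highest marker sum and the lowest St6gal1 level, and in WT replicate 1 was lowest in both. With the log2 marker sum as a covariate the log2 fold change was 0.8 (adjusted p = 0.00829, edgeR), and without knockout replicate 2 it was 0.95 (adjusted p = 0.000825, edgeR). St6gal1 lies on chromosome 16 from 23224729 to 23360350.

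The genes that put sialic acid in an alpha-2,3 linkage, as sialyl Lewis X needs, did not pass. St3gal4 and St3gal6 encode the enzymes that act together on selectin ligands. St3gal4 was listed at 19.19, 10.84 and 15.58 FPKM in WT and at 17.41, 13.60 and 16.26 in knockout (log2 fold change 0.03, 95% interval -0.45 to 0.52, adjusted p = 0.94, edgeR). All its knockout values lay inside the WT range.

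St3gal6 was listed at 42.73, 24.90 and 21.60 FPKM in WT and at 32.79, 27.49 and 35.26 in knockout. WT replicate 1 was the highest of the 6 and WT replicate 3 the lowest, so that the knockout group lay within the WT range here too. Its log2 fold change was 0.08 (95% interval -0.48 to 0.63, adjusted p = 0.875, edgeR), and the interval leaves room for a 1.55-fold rise.

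St3gal1 encodes the enzyme that caps unbranched core 1 O-glycans and so competes with the core 2 enzyme for the same acceptor. Its levels were 5.65, 4.77 and 5.84 FPKM in WT and 6.22, 3.90 and 6.27 in knockout. Replicate 2 was the lowest library of each group, and the log2 fold change was 0 to 2 decimals (95% interval -0.45 to 0.45, adjusted p = 0.996, edgeR). The strand setting of the counts was not stated in the sources used here. A noncoding gene, 4930581F22Rik, overlaps St3gal4 over 137 bases and was listed at 0.94 to 2.7 FPKM, and other noncoding genes that overlap St3gal1, St3gal4, St3gal6 and St6gal1 were not listed.

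**Figure D2:**
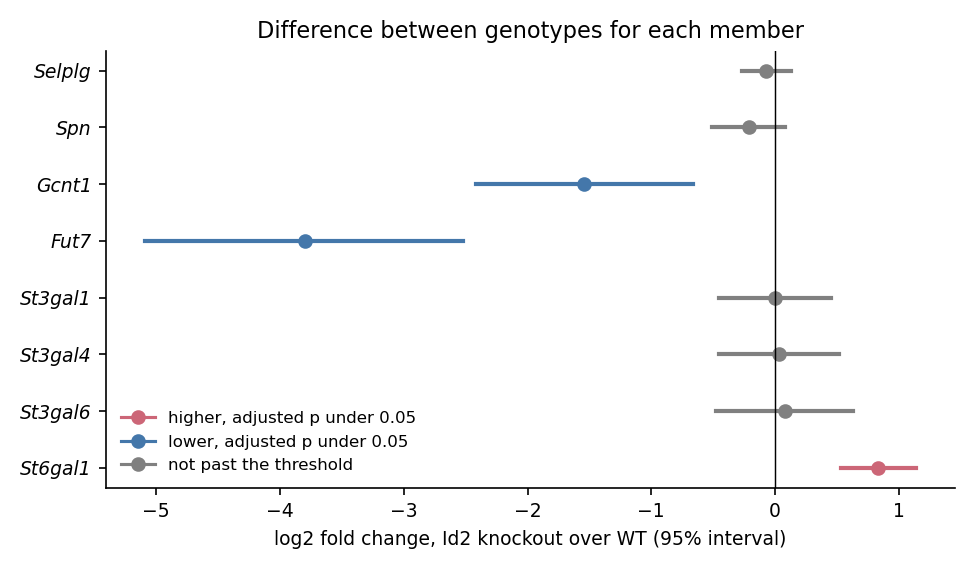
Log2 fold change of each member, Id2 knockout over WT (horizontal axis), with its 95% interval from the edgeR fit of all genes. Fut7 (-3.8) and Gcnt1 (-1.54) lie below 0 and St6gal1 (0.83) above it, and the intervals of the other 5 include 0.

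Levels per length can be set in order within a genotype. In WT the order of mean FPKM was Selplg (476.5), Spn (30.1), St3gal6 (29.7), St6gal1 (20.5), St3gal4 (15.2), Fut7 (10.8), St3gal1 (5.42) and Gcnt1 (2.68). Only the steps from Selplg to Spn and from St3gal1 to Gcnt1 separated neighbours whose 3 libraries did not overlap. In knockout St6gal1 stood second (36.8), ahead of St3gal6 (31.9), Spn (26.8), St3gal4 (15.8) and St3gal1 (5.46), and Gcnt1 (0.93) and Fut7 (0.79) came last. Here neighbours overlapped only for St6gal1 and St3gal6, St3gal6 and Spn, and Gcnt1 and Fut7.

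Among the 4 sialyltransferase members, St6gal1 made up 19.98%, 35.3% and 34.34% of their summed FPKM in WT and 41.39%, 41.49% and 40.15% in knockout. St3gal6 made up 50.6%, 39.77% and 32.97% of it in WT against 34.06%, 35.75% and 36.52% in knockout. The 3 knockout libraries lay close together in both shares, and WT replicate 1 had the lowest share of St6gal1 and the highest of St3gal6.

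Ratios of 2 members within a library do not depend on how libraries are scaled. For Gcnt1 over St3gal1, the enzymes that compete for core 1, the WT libraries had FPKM ratios of 0.439, 0.27 and 0.73 and the knockout libraries 0.135, 0.249 and 0.156. All knockout libraries were lower, though knockout replicate 2 came close to WT replicate 2. The mean log2 ratio went from -1.18 ± 0.716 to -2.52 ± 0.46, a difference of -1.35 that ranged from -1.7 to -0.99 with 1 library left out and was -0.84 on log2(FPKM + 1).

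For St6gal1 over St3gal4, which sialylate the same terminal sugar in different linkages, the WT libraries had ratios of 0.879, 2.04 and 1.44 and the knockout libraries 2.29, 2.35 and 2.38. All knockout libraries were higher, and the log2 ratio differed by 0.77. Without WT replicate 1 it differed by 0.45, and the highest value with 1 library left out was 1.05. For St3gal6 over St3gal4 (difference 0.07) and Selplg over Spn (0.11) the groups overlapped. In the two-sided exact permutation test over libraries (n = 3 each) p was 0.1 for the first and second of these 4 ratios, the smallest that 3 against 3 can give, and 0.2 after adjustment over the 4, so none could pass 0.05. For St3gal6 over St3gal4 the exact permutation p was 1 and for Selplg over Spn 0.8.

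**Figure D3:**
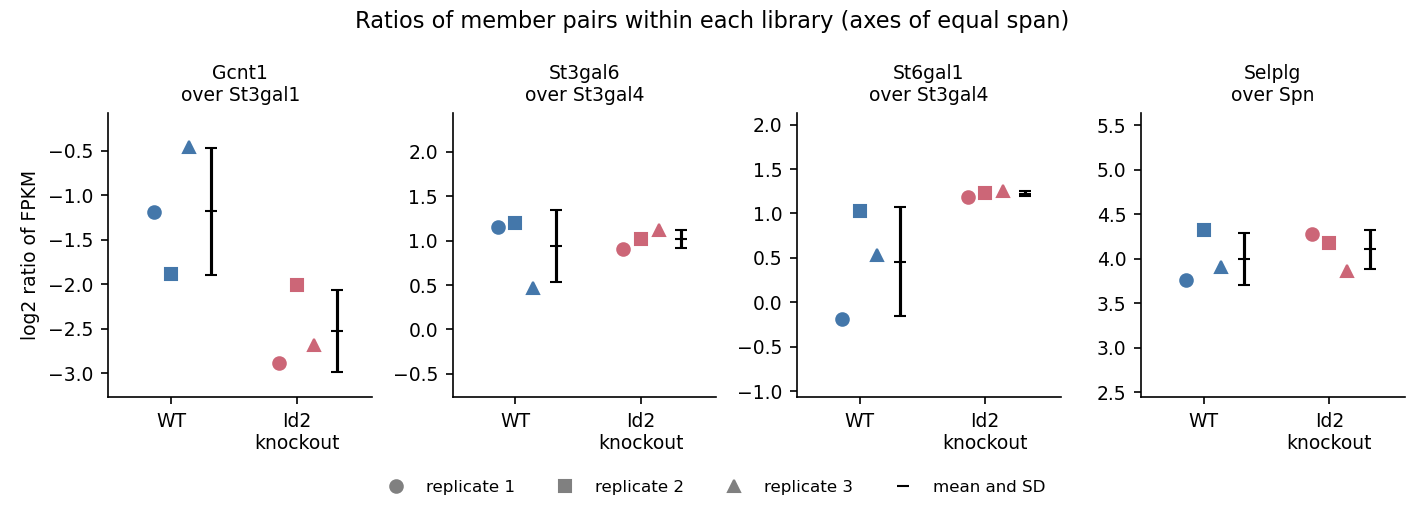
Log2 ratio of FPKM of 2 members within each library (vertical axes of equal span), in WT (blue) and Id2 knockout (red), with black bars for the mean and SD. Knockout libraries lie below all WT libraries for Gcnt1 over St3gal1 and above them for St6gal1 over St3gal4, and the groups overlap for the other pairs.

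The rest of the pathway was read from 8 lists with 84 genes, of which 54 passed the filter on low values. Of these 54, 3 were higher and 3 lower, 11.1% in all, near the 11.9% of all genes tested, with a median log2 fold change of -0.01. That number rested on single libraries: it was 13 without knockout replicate 2, 3 without knockout replicate 3 and 2 without WT replicate 3. The counts by list below can be read against all genes tested: by edgeR 8.77% were lower and 3.14% higher, and by DESeq2 14.4% passed.

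O-glycan synthesis starts with the GALNT enzymes, which attach the first sugar to serine or threonine. Of 11 tested genes in that list 2 were higher and 1 lower. Galnt3 fell from 3.46, 1.20 and 3.07 FPKM to 0, 0.56 and 0.17, with 241 counts in WT and 21 in knockout (log2 fold change -3.42, SE 0.717, adjusted p = 0.0126, edgeR). Like Gcnt1 it passed the filter through the WT group alone, and like Gcnt1 and Fut7 it was lowest in WT replicate 2. Its call ended without WT replicate 3 (adjusted p = 0.0549, edgeR) or knockout replicate 3 (0.069), and without knockout replicate 2 it stood at -4.85. With no filter edgeR gave -3.41 (adjusted p = 0.000807).

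Galnt6 and Galnt11, both more abundant than Galnt3, rose. Galnt6 went from 36.59, 40.59 and 37.31 FPKM to 53.15, 50.46 and 59.19 (log2 fold change 0.5, adjusted p = 0.0133, edgeR) and Galnt11 from 8.63, 8.89 and 8.81 to 14.70, 11.85 and 11.82 (0.53, adjusted p = 0.042, edgeR). In both, every knockout library lay above every WT library. Galnt6 lost its call without WT replicate 3 (0.0606) or knockout replicate 3 (0.0708). Galnt11 kept its call without knockout replicate 2 and lost it without any of the other 5 libraries (adjusted p = 0.0785 to 0.126), with the B cell covariate (log2 fold change 0.46, adjusted p = 0.104) or with a replicate block (0.52, adjusted p = 0.0597, all by edgeR).

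The core 1 enzyme gene C1galt1 and the gene of its chaperone, C1galt1c1, which every O-glycan of this kind needs, had log2 fold changes of 0.16 (adjusted p = 0.656, edgeR) and -0.26 (adjusted p = 0.331, edgeR). Gcnt3 and Gcnt4, the relatives of Gcnt1 with core 2 activity, reached at most 0.27 FPKM in any library (both named after their values were seen). Gcnt1 was therefore the most abundant of the 3 in each library.

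Extension of the branch by galactose and N-acetylglucosamine was represented by 7 tested genes, of which 1 was lower. The galactosyltransferase gene B4galt5 fell from 6.53, 8.14 and 9.37 FPKM to 3.92, 5.19 and 4.61 (log2 fold change -0.82, SE 0.163, adjusted p = 0.00987, edgeR), a call that ended without WT replicate 3 (0.0535). B4galt1, a related gene, averaged 99.2 ± 11.8 FPKM in WT against 126 ± 25.7 in knockout (n = 3 each) and did not pass (adjusted p = 0.154, edgeR).

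Of 6 tested fucosyltransferase and fucose supply genes 0 passed by edgeR, with 3 at an unadjusted p under 0.05 (27.6% of all genes tested). By DESeq2 2 passed, Fut8 and Slc35c1 (named after their values were seen). These went opposite ways, with log2 fold changes by edgeR of 0.45 for Fut8 (adjusted p = 0.0881) and -0.58 for Slc35c1 (adjusted p = 0.0669). Fut4, which encodes the other fucosyltransferase that can build sialyl Lewis X in leukocytes, was listed at no more than 0.07 FPKM in any library and was not tested. Fut7 was listed above it in all 6 libraries, though in knockout replicate 3 on only 3 counts against 2 (0.22 and 0.07 FPKM).

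Among 5 other tested sialyltransferase genes 1 was higher. St8sia1, which encodes the enzyme that makes the ganglioside GD3, rose from 5.15, 4.87 and 5.08 FPKM to 7.78, 8.73 and 7.48 (log2 fold change 0.65, SE 0.106, adjusted p = 0.00356, edgeR). Of 7 genes that supply or remove sialic acid 1 was lower: Nans, which encodes the synthase of sialic acid phosphate, fell from 49.13, 43.11 and 53.20 to 32.52, 25.71 and 28.31 FPKM (log2 fold change -0.76, SE 0.135, adjusted p = 0.00553, edgeR). The groups did not overlap for either gene, and both calls held in each fit without 1 library.

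Sulfation genes passed in 0 of 6 tested by edgeR and by DESeq2, against 11.9% and 14.4% of all genes tested. By edgeR 0 had an unadjusted p under 0.05, against 27.6% of all genes tested. Tpst2, which encodes a sulfotransferase for the tyrosines of PSGL-1 that P-selectin needs, stood at 119 ± 4.93 and 122 ± 20 FPKM (n = 3 each, log2 fold change 0.03, adjusted p = 0.926, edgeR).

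Among the other scaffolds, Cd44, whose product can carry E-selectin ligands, differed by -0.23 on the log2 scale (adjusted p = 0.162, edgeR). Cd24a, which also encodes a small mucin, differed by -0.32 (log2, adjusted p = 0.63, edgeR). It was at 14.95 FPKM in knockout replicate 2, the knockout library with the highest B cell marker sum, and at 4.60 and 5.66 in the others. Without knockout replicate 2 its log2 fold change was -1 (adjusted p = 0.0272, edgeR), and with the B cell covariate it was 0.0 (adjusted p = 0.997, edgeR). Of 8 tested N-glycan branching genes 0 passed by edgeR or DESeq2, with 3 at an unadjusted p under 0.05 by edgeR, against 27.6% of all genes tested.

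**Figure D4:**
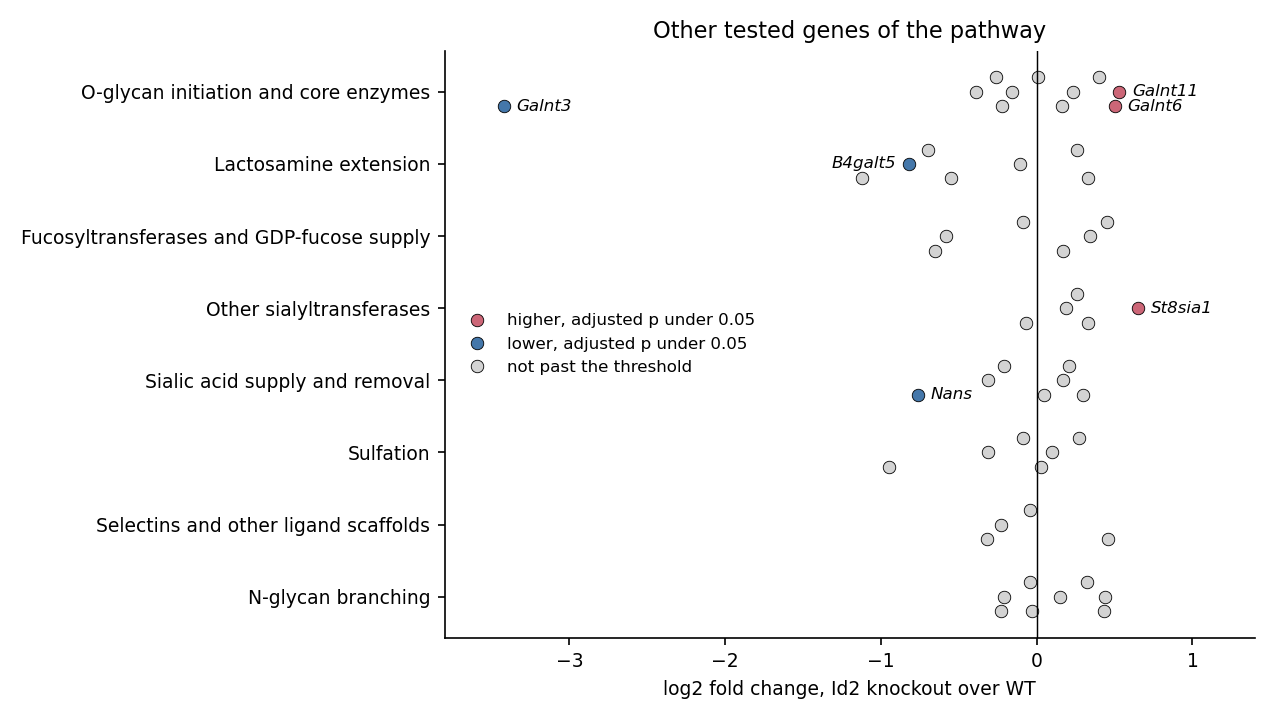
Log2 fold change, Id2 knockout over WT (horizontal axis), of the 54 tested pathway genes in 8 lists (rows), each point a gene. The 6 genes past an adjusted p of 0.05 are named, 3 lower (blue) with Galnt3 (-3.42) farthest out and 3 higher (red), and the other 48 (grey) did not pass.

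The genes whose profile over the 6 libraries was most like that of a changed member were found by Pearson's r of log2 CPM. For Fut7 these were Poc1a, Tmem129 and Mcm4 (r = 0.998, 0.998 and 0.997), for St6gal1 Aff3, Acss1 and Rxrb (0.998, 0.997 and 0.997) and for Gcnt1 Reep4, Trabd and Runx3 (0.992, 0.989 and 0.988). Mcm4, which encodes a subunit of the replication helicase, was listed at 87.17, 76.37 and 96.06 FPKM in WT and at 47.29, 56.97 and 41.94 in knockout, the order of Fut7. Runx3, the gene of a transcription factor of the CD8 lineage, was listed at 46.52, 42.05 and 52.10 FPKM in WT and at 36.98, 39.01 and 39.64 in knockout, the order of Gcnt1. These values rest on 6 points that fall in 2 groups and are a description.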

How the data were processed

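Total RNA of 6 libraries was read as deposited tables of expected counts, which the authors estimated with RSEM, of FPKM values, and of a mean transcript length per gene, per the file headers. Build mm10 and the tools CASAVA, Bowtie2 and RSEM, without versions, are per the submitters' processing notes. Of the expected count values the authors deposited, 25% to 26.2% per library had a decimal part other than 0 (no tolerance). They were rounded, scaled by TMM and tested by edgeR 4.0.16 in R 4.3.3 over 10890 genes, those at 1 FPKM or above in 3 or more libraries (5859 were left out), with Benjamini-Hochberg adjustment. A gene missing from a table was taken as 0. Symbols came from RefSeq, for 16707 of 16749 gene numbers. Members and lists were chosen with earlier results of these data known. Named are all members, pathway genes past the threshold, 7 further pathway genes (Fut4 untested), Id2 and the 3 most alike genes of the 3 members with the smallest p, gene models and receptor segments left out. One further pathway gene under this rule is not reported here. Gcnt3, Gcnt4, Fut8, Slc35c1 and the cell type markers named above were chosen outside it, after their values were seen.

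Tested on simulated data with 200 changed genes among 10890, edgeR recovered 69% of 2-fold and 96% of 4-fold changes with 10 false calls among 175. Libraries of a group were not duplicates (chi-square per degree of freedom 5.62 to 18.6). Alternatives were DESeq2 1.42.0, other scalings, limma 3.58.1 on log2(FPKM + 1) and log2(FPKM + 0.1), other filters, a replicate block, a B cell covariate and each library left out.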

Additional observations from a re-analysis of the deposited data

How the results depend on the processing

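Fut7 and St6gal1 kept their direction and call in each of the 14 and 15 alternatives that tested them, between -4.77 and -2.67 and between 0.75 and 0.95 on the log2 scale. Gcnt1 kept its call in 6 of 14: it stood at -1.47 with the B cell covariate (adjusted p = 0.0584, edgeR), -1.28 by limma on log2(FPKM + 0.1) (0.0966) and -0.85 by limma on log2(FPKM + 1) (0.0996), and between -1.89 and -1.06 with 1 library left out. With an FPKM minimum of 5, under which Fut7 and Gcnt1 were not tested, 1 member passed.

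St3gal1, St3gal4 and St3gal6 did not pass in any fit and changed sign with the B cell covariate (-0.26, -0.19 and -0.2). St3gal1 also did so by limma (-0.02 with a pseudocount of 0.1 and -0.01 with 1) and with the replicate block (-0.02). The cause was not tested. With 1 library left out they ranged from -0.1 to 0.21, from -0.17 to 0.28 and from -0.12 to 0.48. Tpst2 changed sign with the B cell covariate (-0.14) and ranged from -0.08 to 0.17 with 1 library left out, and Cd24a went to 0.0 with that covariate.

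With 1 library left out, 2 to 3 members, 2 to 13 pathway genes and 601 to 1562 of all genes passed. The log2 ratio of St3gal6 over St3gal4 ranged from -0.16 to 0.2 and that of Selplg over Spn from -0.01 to 0.27. Replicate numbers gave no clear pairing of the libraries: deviations from the group means correlated at 0.118, 0.075 and -0.0303 for numbers 1 to 3, and not every library correlated best with its own number. With 3 libraries in each group these correlations cannot decide whether libraries of the same number belong together. With the replicate number as a block, 3 members, 6 pathway genes and 1183 genes passed, and of the genes named Galnt11 lost its call (adjusted p = 0.0597, edgeR) while Fut8 gained one. Counts limit Fut7 in knockout (33 in all) and Galnt3 (21).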
